A study of Mus musculus with 8 samples.

Results

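The EGF receptor system of skin keratinocytes was read out through 10 transcripts, chosen by gene symbol from a list of 3 ERBB receptors (Egfr, Erbb2, Erbb3), 6 EGF family ligands (Tgfa, Hbegf, Areg, Ereg, Epgn, Btc) and the ligand sheddase Adam17. All 10 were found among the 24421 gene symbols of the count tables, and all 10 were among the 13016 genes that passed the filter on low counts. Bulk RNA sequencing covered 8 libraries of keratinocytes isolated from mouse skin, strain CBA x C57Bl/6J. The 4 knockout libraries came from InvEE mice that were K5 Cre+ HMGB1 fl/fl, and the 4 control libraries from InvEE mice that were K5 Cre- HMGB1 fl/fl. InvEE is a transgene that expresses active MEK1 from the involucrin promoter, hence in suprabasal keratinocytes, and every library of both groups carries it together with the floxed Hmgb1 allele. Hmgb1 encodes a DNA-binding nuclear protein with alarmin activity once released. K5 drives Cre in the basal layer and so in its progeny, and since Cre was present in knockouts alone, Cre itself and the deletion cannot be told apart. Ages and sexes are not in the labels. Nothing in them ties replicates to different animals, and the p-values therefore reflect variation among libraries, some of which may be technical.

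EGF family ligands are made as membrane-anchored precursors. Adam17 cuts several of them free, and the released ligand binds EGFR on the same or a neighbouring keratinocyte. EGFR then pairs with itself, with ERBB2 or with ERBB3 and signals through RAS, RAF, MEK and ERK, so the MEK1 transgene of these mice sits downstream of the receptor. In mouse skin this system is known for its part in hair follicle shape, keratinocyte growth, survival and wound closure, and loss of Tgfa or reduced activity of Egfr gives a wavy coat.

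The 6 ligands share the EGF-like module that contacts the receptor, and its coding sequence is shown to make plain how alike and how distinct the measured transcripts are. In each of the 6, 6 cysteine codons stood in 1 spacing pattern over 36 codons, with 7, 4, 10, 1 and 8 codons between successive cysteines, split over exons 3 and 4. The search that found the stretches fixed the spacings of 7, 1 and 8 codons, so only the others could differ, within a set range. Capitals mark the cysteine codons, and the sequences come from GENCODE M21 transcripts (mm10), 5′ to 3′ on the coding strand.
Tgfa: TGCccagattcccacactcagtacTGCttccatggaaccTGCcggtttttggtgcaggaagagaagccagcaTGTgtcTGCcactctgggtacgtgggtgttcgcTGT
Areg: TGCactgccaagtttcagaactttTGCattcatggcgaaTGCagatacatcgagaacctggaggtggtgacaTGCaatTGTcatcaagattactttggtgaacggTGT
Ereg: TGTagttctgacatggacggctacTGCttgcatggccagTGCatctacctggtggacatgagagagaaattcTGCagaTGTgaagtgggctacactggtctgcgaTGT
Epgn: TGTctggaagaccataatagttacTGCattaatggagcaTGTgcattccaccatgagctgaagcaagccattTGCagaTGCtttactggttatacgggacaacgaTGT
Btc: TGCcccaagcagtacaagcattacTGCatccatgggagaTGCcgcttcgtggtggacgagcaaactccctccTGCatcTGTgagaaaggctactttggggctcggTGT
Over these 108 bases the 5 sequences shown were identical in pairs at 45.4% (Tgfa and Ereg) to 62% (Tgfa and Btc) of positions. From first to last base, the intron between exons 3 and 4 included, the stretch of Tgfa spans chr6:86263200-86269960 on the plus strand. On chromosome 5, also on the plus strand, the stretches span chr5:91143614-91144364 for Areg, chr5:91088496-91089111 for Ereg and chr5:91031152-91032237 for Epgn. The stretch of Btc spans chr5:91362421-91366197 on the minus strand.

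Of the members, 4 ligand genes sit together on chromosome 5, within 375 kb. They are Epgn (91027517 to 91035212), Ereg (91074617 to 91093649), Areg (91139599 to 91148432) and Btc (91357261 to 91402994). The others are dispersed. Tgfa lies on chromosome 6 (86195038 to 86275744), Erbb3 on chromosome 10 (128567523 to 128589635), Egfr and Erbb2 on chromosome 11 (16752203 to 16913907 and 98412484 to 98437716), Adam17 on chromosome 12 (21323509 to 21373632) and Hbegf on chromosome 18 (36504927 to 36515805), all in mm10. Exons of Erbb2, Tgfa, Ereg and Adam17 overlap an annotated gene on the opposite strand (Mien1, Gm43917, Gm19610 and Iah1). Those 4 counts may hold reads of the partner or lack reads set aside as ambiguous, the strand setting of the counting being unknown here.

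Library totals over genes were 30506676 to 34229030 counts. Hmgb1 was at 113 to 126 CPM (counts relative to the TMM-scaled library total) in knockouts and 565.5 to 615 CPM in controls, as the labels say. Summed basal keratinocyte markers were at 48300 to 57700 CPM in knockouts and 48100 to 55300 CPM in controls. Y-linked transcripts were present in 3 libraries, knockout replicate 1 and control replicates 2 and 3, and at 0 to 51 counts in the other 5. Markers of other cell types were present to differing degrees. Among T cell genes Cd3e and Cd2, among melanocyte genes Mlana and Sox10 and among endothelial genes Kdr and Emcn had under 10 counts in every library. Tyr had 76 to 99 counts in knockouts and 69 to 89 counts in controls, Pmel 80 to 122 counts in knockouts and 84 to 128 counts in controls, and the Langerhans cell marker Cd207 35 to 107 counts in knockouts and 48 to 226 counts in controls. The summed melanocyte list was at 6.16 to 7.7 CPM in knockouts and 6.53 to 7.4 CPM in controls, with Kit called lower, and the endothelial list at 0.537 to 1.2 CPM in knockouts and 0.927 to 3.05 CPM in controls, with no call by edgeR. The Langerhans list, mostly Epcam, was at 233 to 423 CPM in knockouts and 236 to 326 CPM in controls, with no call by edgeR.

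The fibroblast list, almost wholly Postn, was at 1160 to 1400 CPM in knockouts and 1040 to 2520 CPM in controls, with Dcn called higher. Col1a1 was at 8.91 CPM in knockout replicate 1, against 0.744 to 4.19 CPM in the other knockouts and 1.59 to 4.25 CPM in controls. The hair follicle list, mostly Krt17 and Krt79, was at 1800 to 2430 CPM in knockouts and 1520 to 1990 CPM in controls. Its stem cell markers ran the other way. Lgr5 fell to 2.75 to 5.72 CPM in knockouts, against 9.11 to 23.0 CPM in controls (edgeR adjusted p = 0.006426). Cd34 and Lhx2 had log2 fold changes of -1.24 and -1.03 without a call (edgeR adjusted p = 0.074 and 0.083). The part of these markers in the values of the members, or of the other genes of the pathway such as Nrg1, was not tested.

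No member passed an adjusted p of 0.05 between knockouts and controls (Benjamini-Hochberg over 13016 genes after edgeR's quasi-likelihood test). Of all tested genes 8.87% passed, 4.33% higher and 4.54% lower in knockouts, against 0 of 10 members in either direction. Areg had a lower mean and Erbb3 a higher mean in knockouts, with log2 fold changes of -0.68 and 0.62, and these were the smallest adjusted p-values among the members (0.0732 and 0.0764). Unadjusted, 2 members had a p under 0.05, against 26.2% of all tested genes, and limma-voom also called 0 members. DESeq2 called both, Erbb3 higher (adjusted p = 0.018) and Areg lower (adjusted p = 0.0218). Log2 fold changes over the 10 members ran from -0.68 to 0.62, 6 of them positive and 4 negative. The median absolute log2 fold change was 0.217 over the members and 0.191 over all tested genes. In bulk samples, fewer cells of a type and less RNA per cell cannot be told apart.

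**Figure D1:**
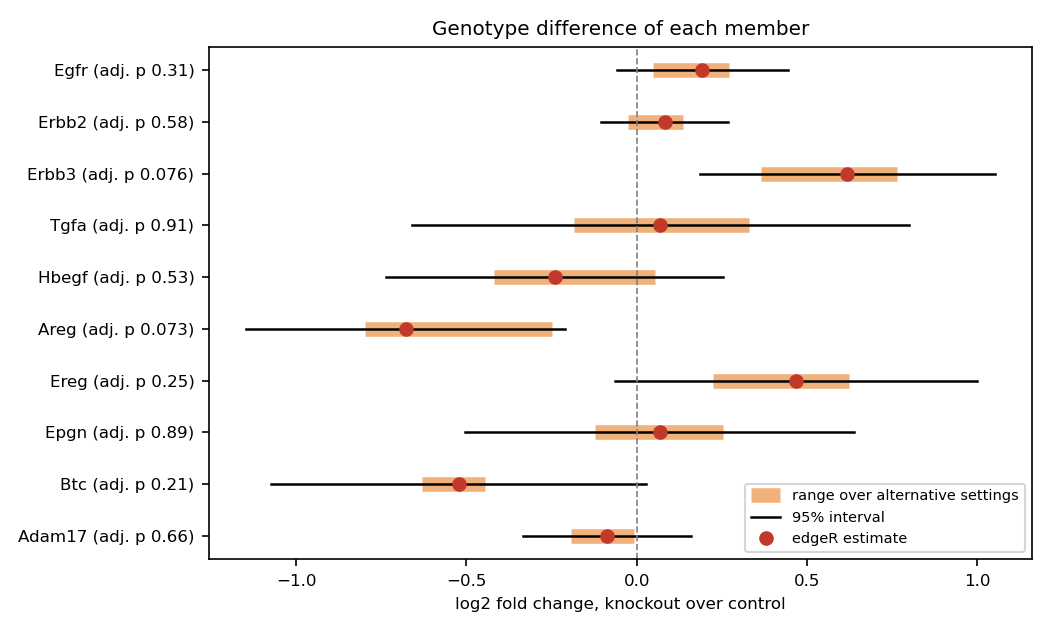
Log2 fold change of each member, knockout over control (x axis), as the edgeR estimate (point) with its 95% interval (line) and the range over the alternative settings (band). The intervals of Areg and Erbb3 lie to either side of 0, at adjusted p-values of 0.0732 and 0.0764, and those of the other 8 members span 0.

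Among the receptors, Egfr, which binds all 6 ligands, was steady in the controls. It was at 241, 204, 167 and 186 CPM in knockout replicates 1 to 4, against 189.6, 169, 169 and 169 CPM in control replicates 1 to 4. Knockouts spanned the whole control range, and knockout replicate 1 was the highest library. The fold change was 1.14 (95% interval 0.961 to 1.36, adjusted p = 0.3135, edgeR). Between libraries with Y-linked transcripts, 1 of them a knockout, the difference in log2 CPM was 0.51, and between those without it was 0.05.

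Erbb2, which has no ligand of its own and serves as partner of the other receptors, varied least of the members within knockouts. It was at 202, 221, 208 and 206.5 CPM in knockout replicates 1 to 4, against 194, 183, 195 and 219.7 CPM in control replicates 1 to 4. The groups overlapped, and the fold change was 1.06 (95% interval 0.929 to 1.205, adjusted p = 0.5824, edgeR). Scaling by library totals alone put the log2 fold change at -0.03 in place of 0.08.

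Erbb3, the receptor with a weak kinase that couples strongly to PI3 kinase once phosphorylated by a partner, was at 291, 292, 161 and 198 CPM in knockout replicates 1 to 4. In control replicates 1 to 4 it was at 156, 131, 145 and 181 CPM. Knockout replicates 1 and 2 stood well above all controls, while knockout replicate 3 lay inside the control range. Means were 235 ± 66.6 CPM in knockouts and 153 ± 21.1 CPM in controls (SD, n = 4 each), and the log2 fold change was 0.62 with an SE of 0.19. Its adjusted p was 0.0764 by edgeR, and an exact two-sided permutation test gave p = 0.0571. Without knockout replicate 3 edgeR called Erbb3 higher (log2 0.77, adjusted p = 0.0209), while without knockout replicate 1 or 2 the log2 fold change was 0.51 or 0.50 (edgeR adjusted p = 0.179 and 0.191). Between the libraries with Y-linked transcripts, 1 knockout and 2 controls, the difference in log2 CPM was 1.08. Between those without, 3 knockouts and 2 controls, it was 0.32 (edgeR adjusted p = 0.538 in those 5 libraries).

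Of 8 tested suprabasal genes 2 rose in knockouts, Krt10 and Sbsn, and 6 were not called, against 4.33% of all tested genes called higher. The list's summed level, mostly Krt10 and Krt1, was 14400 to 18700 CPM in knockouts and 8540 to 13500 CPM in controls. Sbsn, suprabasin of the upper epidermis, was at 986, 1103, 754 and 747 CPM in knockout replicates 1 to 4, against 386, 404, 375 and 639.5 CPM in control replicates 1 to 4. Krt10, the suprabasal keratin, was at 7998, 10780, 8079 and 9228 CPM in knockout replicates 1 to 4, against 4464, 4556, 4367 and 6988 CPM in control replicates 1 to 4. Knockout replicates 1 and 2, the libraries highest in Erbb3, were the highest knockouts for 4 of the 8 genes, Sbsn among them and Krt10 not. The share of all tested genes with that order was not computed, so the count is not read as a pattern. The part of this list in the Erbb3 values was not tested.

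**Figure D2:**
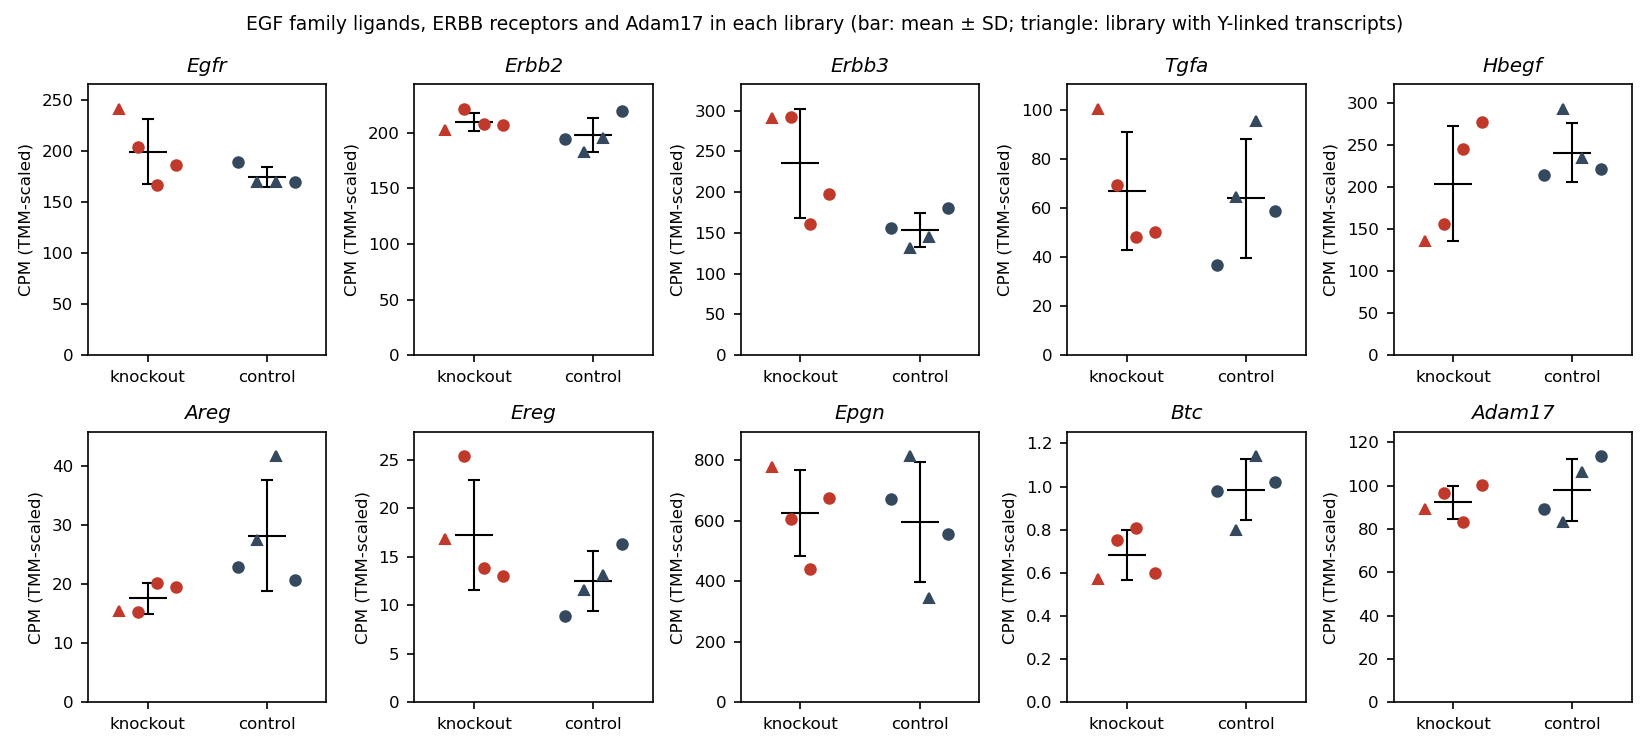
CPM of each member (y axis, from 0) in the 4 knockout and 4 control libraries, with the group mean and SD as bars and triangles for libraries with Y-linked transcripts. Areg is the only member whose groups do not overlap; Erbb3 reaches 292 CPM in knockouts and 181 CPM in controls.

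Among the ligands, Epgn (epigen) was by far the most abundant. Per kilobase of annotated exon, it was at 346 ± 78.6 CPM per kb in knockouts and 330.4 ± 109.6 CPM per kb in controls (SD, n = 4 each). Hbegf, heparin-binding EGF, followed at 42.2 ± 14.2 CPM per kb in knockouts and 49.8 ± 7.34 CPM per kb in controls. Areg (amphiregulin) was at 14.5 ± 2.15 CPM per kb in knockouts and 23.2 ± 7.71 CPM per kb in controls, Tgfa at 10.3 ± 3.71 CPM per kb in knockouts and 9.85 ± 3.74 CPM per kb in controls, and Ereg (epiregulin) at 4.18 ± 1.37 CPM per kb in knockouts and 3.03 ± 0.75 CPM per kb in controls. Btc (betacellulin) came last at 0.151 ± 0.0254 CPM per kb in knockouts and 0.218 ± 0.0313 CPM per kb in controls. In knockouts Areg and Tgfa did not differ beyond their spread. By these exon lengths the order of the 6 was the same in both groups. By the longest coding transcript Tgfa was at 14.8 CPM per kb in knockouts and 14.1 CPM per kb in controls, above Areg in knockouts and below it in controls.

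Set beside the receptors, Erbb2 at 40.2 ± 1.54 CPM per kb in knockouts and 38 ± 2.98 CPM per kb in controls lay near Hbegf. Erbb3 was at 39.1 ± 11.1 CPM per kb in knockouts and 25.5 ± 3.50 CPM per kb in controls, and in knockouts Hbegf, Erbb2 and Erbb3 did not differ beyond their spread. Egfr was at 17.6 ± 2.79 CPM per kb in knockouts and 15.4 ± 0.894 CPM per kb in controls, and Adam17 at 12.9 ± 1.06 CPM per kb in knockouts and 13.7 ± 1.98 CPM per kb in controls. With the length of the longest coding transcript in place of all exons, Hbegf was at 85.8 CPM per kb in knockouts and 101 CPM per kb in controls. In knockouts this was above Erbb2 at 41.8 CPM per kb and Erbb3 at 39.1 CPM per kb by the same length. Adam17 was then at 20.7 ± 1.70 CPM per kb in knockouts and 21.96 ± 3.17 CPM per kb in controls. Egfr, by the same length, was at 19.5 ± 3.09 CPM per kb in knockouts and 17.1 ± 0.992 CPM per kb in controls. Adam17 thus moved above Egfr, though in knockouts they did not differ beyond their spread.

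Epgn made up 82.4% ± 5.09 of the 6 ligands' summed CPM per kb of annotated exon in knockouts and 78% ± 8.51 in controls (SD, n = 4 each). The shares depend on the lengths used. By the longest coding transcript Hbegf was higher, at 85.8 CPM per kb in knockouts and 101 CPM per kb in controls, and shares by that length were not computed. Its lowest share, 65.4%, was in control replicate 3, where Areg held 11.7% and Hbegf 16.6%. The summed level of the 6 was 417.5 ± 74.4 CPM per kb in knockouts and 416 ± 107 CPM per kb in controls. The ranges, 322 to 492 CPM per kb in knockouts and 292 to 546 CPM per kb in controls, overlapped throughout.

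**Figure D3:**
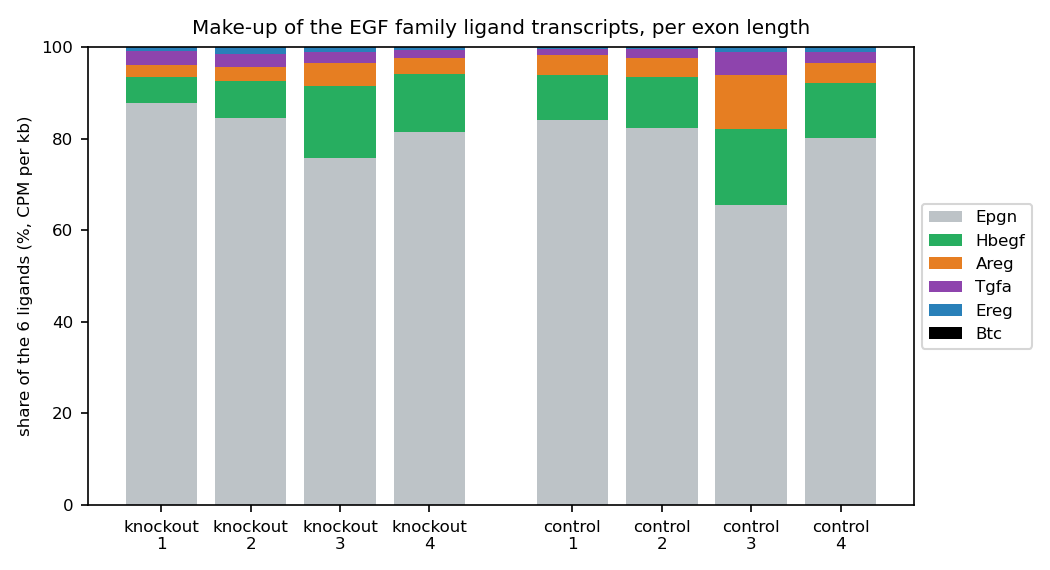
Share of each of the 6 ligands in their summed CPM per kb of annotated exon (y axis, percent) in each library, knockouts to the left of controls. Epgn holds 75.7 to 87.7% in knockouts and 65.4 to 84% in controls.

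Areg, a ligand of EGFR that is induced by ERK activity and in wounds, was the only member whose groups did not overlap, against 17% of all tested genes. It was at 15.4, 15.3, 20.1 and 19.5 CPM in knockout replicates 1 to 4, against 22.9, 27.4, 41.6 and 20.7 CPM in control replicates 1 to 4. The gap between knockout replicate 3 and control replicate 4 was small, and control replicate 3 was the highest library. Means were 17.6 ± 2.61 CPM in knockouts and 28.1 ± 9.37 CPM in controls (SD, n = 4 each). On the log2 scale the fold change was -0.68 with an SE of 0.21, and the 95% interval of the fold ran from 0.452 to 0.865. Without control replicate 3 it was -0.43 (edgeR adjusted p = 0.11). The adjusted p was 0.0732 by edgeR, and the exact two-sided permutation p was 0.0286, the smallest that 4 against 4 libraries can give. The difference in log2 CPM was -1.14 between libraries with Y-linked transcripts and -0.26 between those without (edgeR adjusted p = 0.492 in those 5 libraries). An edgeR fit let the genotype difference depend on Y-linked transcripts, with 1 knockout library on the Y-linked side. The log2 difference between the 2 sides was -0.916 for Areg, -1.009 for Hbegf and 0.713 for Erbb3. It ran from -0.285 (Btc) to 0.527 (Epgn) over the other members. Such a dependence was therefore not particular to Areg, and it rests on that 1 library. Areg is also made by T cells and innate lymphoid cells. Cd3g had 5 to 7 counts in knockouts and 3 to 15 counts in controls, and Il7r 3 to 8 counts in knockouts and 0 to 13 counts in controls. Both were highest in control replicate 3, as Areg was. Within the same T cell and innate lymphoid list, Cd3e peaked at 6 counts, in knockout replicate 2 and control replicates 1 and 3. Cd2 peaked at 4 counts, in control replicate 1. Counts this low, those of Cd3g and Il7r included, do not rank the libraries. Thy1 and Gata3 were highest in knockout replicate 1 by CPM. Gata3 was lowest in control replicate 3, at 175 CPM. Of that list 1 gene rose, Gata3, which keratinocytes also express, and the summed level, 673 to 956 CPM in knockouts and 398 to 574 CPM in controls, was almost wholly Gata3 and Thy1. The part of these cells in the Areg values was not tested.

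Hbegf, released by wounded keratinocytes and known to drive their migration, was at 136, 156, 245 and 278 CPM in knockout replicates 1 to 4. In control replicates 1 to 4 it was at 214, 293, 234 and 222 CPM. Knockout replicates 1 and 2 were below every control, and knockout replicates 3 and 4 lay within the control range. Means were 204 ± 68.4 CPM in knockouts and 241 ± 35.5 CPM in controls (SD, n = 4 each), a fold change of 0.846 (95% interval 0.601 to 1.19, adjusted p = 0.5317, edgeR). The difference in log2 CPM was -0.95 between libraries with Y-linked transcripts and 0.01 between those without.

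Early response genes did not share 1 order among the knockouts. Of the 13 tested, 3 were lowest in knockout replicates 1 and 2 (Fos, Egr1 and Etv4), 3 were highest there (Fosl1, Myc and Ier3) and 7 were neither. Shares of all tested genes with either order were not computed. These early response genes were named after their values were seen. Fos was at 805.5, 971, 1338 and 1930 CPM in knockout replicates 1 to 4, against 2343, 2342, 2159 and 1765 CPM in control replicates 1 to 4. Egr1 was at 862, 962, 1610 and 1937 CPM in knockout replicates 1 to 4, against 1891, 2161, 1433 and 1311 CPM in control replicates 1 to 4. Both genes are known to follow ERK activity and also to be induced while cells are taken from tissue. Ier3 was at 209, 189, 115.5 and 128.5 CPM in knockout replicates 1 to 4, against 188.5, 169, 101 and 234 CPM in control replicates 1 to 4. The part of any of these genes in the Hbegf values was not tested.

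**Figure D4:**
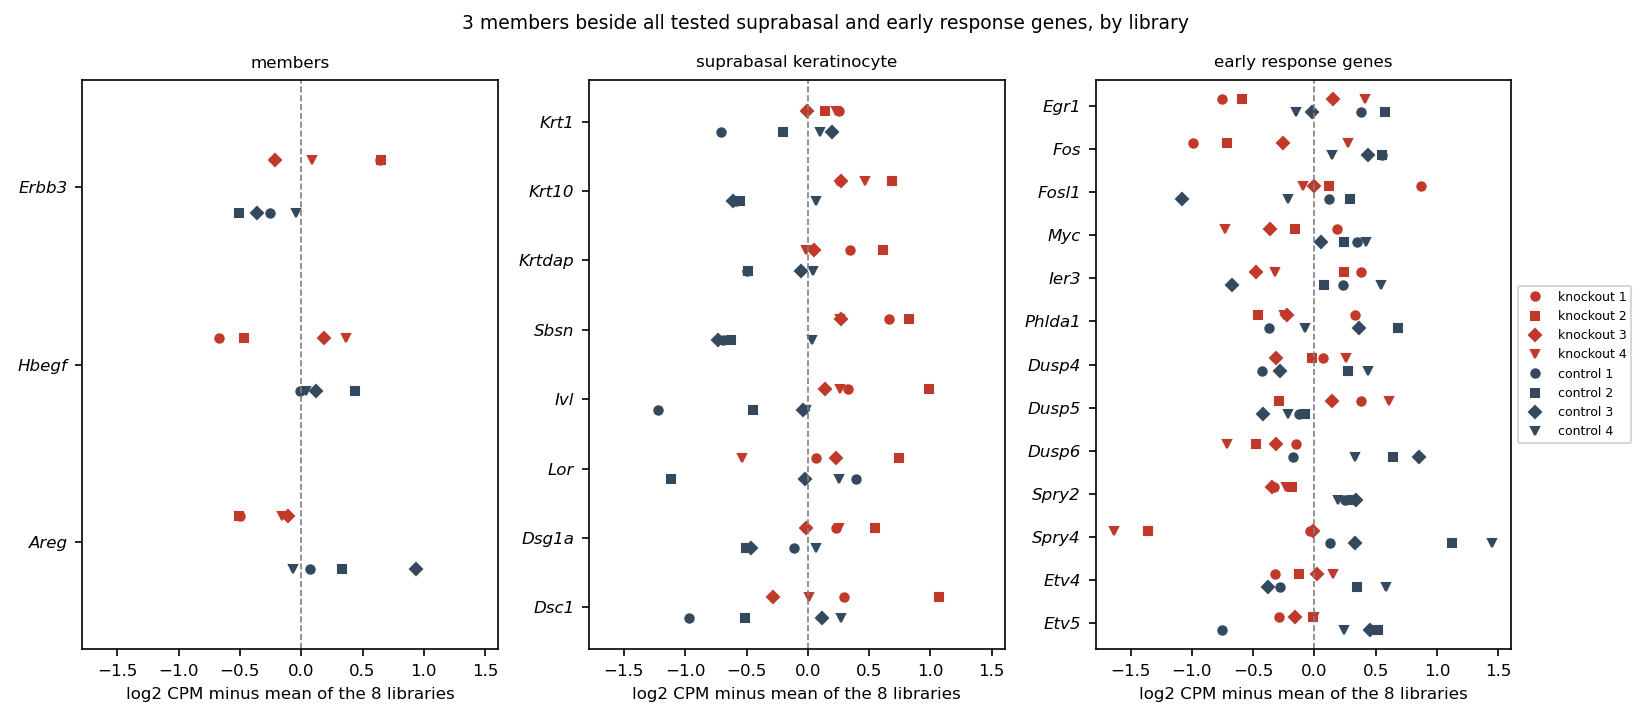
Log2 CPM of each library minus the mean of the 8 libraries (x axes) for Erbb3, Hbegf and Areg and for all tested suprabasal and early response genes. Knockouts are drawn above controls in each row (marker shape gives the replicate number, which was not taken to pair the groups). Knockout replicates 1 and 2 are the highest knockouts for 4 of 8 suprabasal genes. For the 13 early response genes they are the lowest knockouts in 3 and the highest in 3. Shares over all tested genes were not computed.

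Tgfa, the ligand whose loss waves the mouse coat, was at 100.3, 69.3, 48.3 and 50.3 CPM in knockout replicates 1 to 4, against 36.7, 64.6, 95.6 and 58.7 CPM in control replicates 1 to 4. Library values varied widely and the groups overlapped. The 3 libraries with Y-linked transcripts were at 64.6 to 100.3 CPM and the other 5 at 36.7 to 69.3 CPM. The fold change was 1.05 (95% interval 0.633 to 1.74, adjusted p = 0.9134, edgeR), and the log2 fold change was 0.07, or -0.06 when scaled by library totals alone.

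Epgn was at 779.5, 607, 441 and 675 CPM in knockout replicates 1 to 4, against 674, 813, 345 and 556 CPM in control replicates 1 to 4. The lowest library was control replicate 3, in which Areg and Tgfa were the highest of the controls. The fold change was 1.05 (95% interval 0.706 to 1.56, adjusted p = 0.8937, edgeR), and the log2 fold change was 0.07, or -0.04 when scaled by library totals alone.

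Ereg, which binds EGFR and ERBB4, was at 16.9, 25.3, 13.9 and 12.98 CPM in knockout replicates 1 to 4, against 8.91, 11.6, 13.1 and 16.3 CPM in control replicates 1 to 4. Knockout replicate 2 was the highest library and the groups overlapped. The fold change was 1.38 (95% interval 0.957 to 1.997, adjusted p = 0.2487, edgeR), opposite in sign to that of its chromosomal neighbour Areg.

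Btc, which also binds EGFR and ERBB4, had the fewest reads of the members, with 16 to 25 counts per knockout library and 25 to 37 counts per control library. It was at 0.573, 0.753, 0.808 and 0.5998 CPM in knockout replicates 1 to 4, against 0.977, 0.799, 1.14 and 1.02 CPM in control replicates 1 to 4. Knockout replicate 3 and control replicate 2 overlapped narrowly. The fold change was 0.696 (95% interval 0.475 to 1.02, adjusted p = 0.2137, edgeR).

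Adam17, the metalloprotease that sheds Tgfa, Areg, Hbegf and Ereg, was at 89.4, 96.5, 83.3 and 100.4 CPM in knockout replicates 1 to 4, against 89.2, 83.4, 106 and 114 CPM in control replicates 1 to 4. The groups overlapped throughout, and the fold change was 0.942 (95% interval 0.794 to 1.12, adjusted p = 0.6618, edgeR). Of the members it had the narrowest interval after Erbb2.

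Outside the members, 45 other genes of the pathway were listed in 4 groups, and 42 were tested. Of these 3 rose and 3 fell in knockouts (14.3%, against 8.87% of all tested genes), and without knockout replicate 2 the counts were 0 and 1. These 42 had a median log2 fold change of 0.06 against -0.02 over all tested genes. The calls lay among receptor adaptors and among proteins that restrain or sort receptors. Of 17 tested restraint and endocytosis genes, 2 rose, 2 fell and 13 were not called. Of 12 adaptors and effectors 1 rose, 1 fell and 10 were not called. None of 9 ligand processing genes and none of 4 other ligands was called by edgeR, with 1 and 3 at an unadjusted p under 0.05.

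Lrig1, which marks ERBB receptors for degradation and keeps epidermal stem cells quiescent, fell to 114 to 143 CPM in knockouts, against 177 to 238 CPM in controls (log2 -0.76, SE 0.11, adjusted p = 0.005331, edgeR). Its groups did not overlap and it was called under all 19 alternatives. Ptprk, a receptor phosphatase that acts on EGFR in human keratinocytes, fell to 9.42 ± 1.36 CPM in knockouts, against 16.6 ± 3.73 CPM in controls (SD, n = 4 each, edgeR adjusted p = 0.02029). Ptprj, another receptor phosphatase that can act on EGFR, rose to 25.4 ± 5.6 CPM in knockouts, against 15.2 ± 1.31 CPM in controls (SD, n = 4 each, edgeR adjusted p = 0.01693). These phosphatase transcripts moved in opposite directions. Ptprk lost its call without knockout replicate 2 (adjusted p = 0.064) or control replicate 2 (adjusted p = 0.0574), and Ptprj without knockout replicate 2 (adjusted p = 0.0562, edgeR). Stam, which sorts internalised receptors on endosomes, was at 94.3, 75.95, 42.7 and 60.9 CPM in knockout replicates 1 to 4, against 43.3, 41.3, 38.5 and 35.5 CPM in control replicates 1 to 4, and rose by the test (adjusted p = 0.0454, edgeR). Its groups overlapped at knockout replicate 3, and its call was lost in 7 of 8 fits that left out 1 library (adjusted p = 0.0639 to 0.118).

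Among adaptors, Src, a tyrosine kinase that acts with EGFR, rose to 61.7 ± 10.6 CPM in knockouts, against 44 ± 3.48 CPM in controls (log2 0.49, SE 0.12, adjusted p = 0.0344, edgeR). Pik3r1, the regulatory subunit of PI3 kinase that docks on ERBB3, fell to 50.4 ± 4.48 CPM in knockouts, against 69.2 ± 9.22 CPM in controls (log2 -0.46, SE 0.11, adjusted p = 0.03063, edgeR). Neither gene's groups overlapped. Src lost its call in 7 of 8 fits that left out 1 library, with adjusted p-values up to 0.0883, and Pik3r1 in 6, up to 0.0776.

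Of the other ligands, Nrg1, a ligand of ERBB3 and ERBB4, was at 14.8, 5.47, 2.91 and 2.78 CPM in knockout replicates 1 to 4, against 0.168, 0.511, 3.02 and 0.847 CPM in control replicates 1 to 4. Control replicate 3 exceeded the lowest knockouts, and the log2 fold change of 2.51 (SE 0.86) had an adjusted p of 0.106 (edgeR). Of 19 alternatives 2 gave a call. These were leaving out control replicate 3 (log2 3.67, adjusted p = 0.0456, edgeR) and adding Y-linked status to the model (log2 2.96, adjusted p = 0.0254, edgeR). Without knockout replicate 1, the highest library, the log2 fold change was 1.72 (adjusted p = 0.244, edgeR). With the replicate number as a block the adjusted p was 0.246 (edgeR). Nrg2 was at 8.05 ± 2.54 CPM in knockouts and 7.26 ± 2.75 CPM in controls (SD, n = 4 each, edgeR adjusted p = 0.7794). Nrg4, an ERBB4 ligand named after its values were seen, was at 0.819 to 1.61 CPM in knockouts and 2.01 to 3.46 CPM in controls, with no overlap and an adjusted p of 0.05896 (edgeR). DESeq2 called it (adjusted p = 0.0176), as did edgeR scaled by library totals alone (adjusted p = 0.0377). Erbb4 had 0 to 3 counts in each library and Nrg3 0 to 1 count. Of the ligand processing genes, Rhbdf1, a carrier of Adam17, was at 173 ± 21.3 CPM in knockouts and 169 ± 11.4 CPM in controls, and the Adam17 inhibitor Timp3 at 174 ± 50.6 CPM in knockouts and 148 ± 53.6 CPM in controls (SD, n = 4 each).

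**Figure D5:**
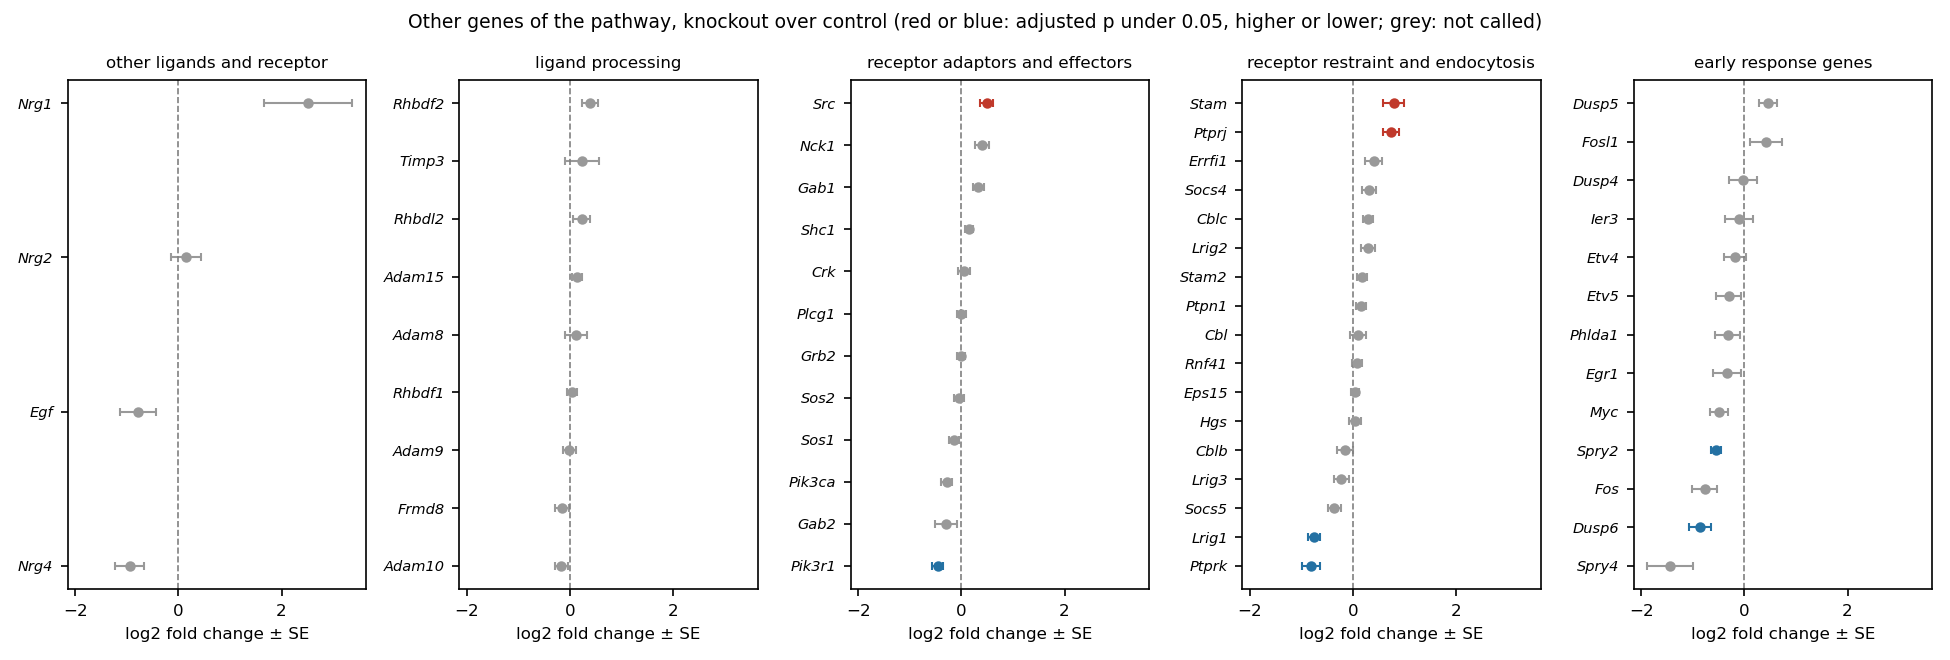
Log2 fold change, knockout over control, with its SE (x axes) for the tested genes of 5 lists. Called genes are Src, Stam and Ptprj (higher) and Pik3r1, Lrig1, Ptprk, Spry2 and Dusp6 (lower); Nrg1 has the widest error, an SE of 0.86.

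Of 13 tested early response genes, 2 fell (15.4%, against 8.87% of all tested genes called and 4.54% called lower) and 11 were not called. The list's median log2 fold change was -0.32, against -0.02 over all tested genes. Spry2, an inhibitor of receptor tyrosine kinase signalling that ERK activity induces, fell to 11.7 to 13.2 CPM in knockouts, against 17.1 to 18.9 CPM in controls (log2 -0.55, SE 0.10, adjusted p = 0.01119, edgeR). Dusp6, the ERK phosphatase, fell to 180 ± 29.5 CPM in knockouts, against 326 ± 93.9 CPM in controls (SD, n = 4 each, edgeR adjusted p = 0.0341). The groups of Dusp6 overlapped, and its call was lost in 7 of 8 fits that left out 1 library (adjusted p up to 0.0997).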

How the data were processed

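The authors deposited whole-number counts per gene symbol for each library, with no normalization. Per the submitters' processing notes, the build was mm10 and the tools were TopHat2 2.1.0, SAMtools 0.1.18, Trimmomatic 0.35 and FastQC 0.11.4. Not given in the sources used here are the read counter, the gene models and the strand setting. Closing lines for reads outside genes (15.7 to 21.75% of the total) and ambiguous reads were left out. Genes were filtered with edgeR's filterByExpr, scaled by TMM and tested with edgeR's quasi-likelihood test (robust, genotype only, threshold 0.05 after Benjamini-Hochberg adjustment over 13016 genes; R 4.3.3, edgeR 4.0.16, limma 3.58.1, DESeq2 1.42.0), which was tested on simulated data. Intervals are 95% intervals of the fitted fold. Levels per kb divide CPM by the union of GENCODE M21 exons. Coordinates of genes are RefSeq's for GRCm38.p6, the assembly of mm10, and those of the EGF-like stretches are from GENCODE M21. Members and lists were chosen with earlier results of these data known. All 10 members were named. Of each other list, up to 4 called genes were named by smallest adjusted p or, where none passed, the 2 with the highest mean. Further genes stand outside that rule, and not all of them are marked. Among the unmarked are Nrg3, Erbb4 and cell type markers such as Cd34, Lhx2, Col1a1, Cd207, Cd3g and Il7r. Alternatives were DESeq2, limma-voom, other scalings and filters, a replicate block, terms and subsets for Y-linked transcripts, and leaving out each library. Precision is set by 4 libraries a group at 30506676 to 34229030 counts.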

Additional observations from a re-analysis of the deposited data

Results flagged for a closer look

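Egfr in control replicate 1, at 189.6 CPM, stood apart from the other 3 controls, which lay at 169 CPM each. The gap was 0.999 of the range of the control group, above the 95% critical value of Dixon's test for 4 samples. Chance puts about 1 in 20 groups above that critical value, and 20 groups were examined.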

How the results depend on the processing

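Of 189 recomputed fold changes of members, 177 kept their direction and side of the threshold, 3 gained a call (Erbb3 and Areg with DESeq2, Erbb3 without knockout replicate 3) and 9 changed sign; none of the 9 concerned a called value, and the cause was not tested. By library totals alone, which moved the median of all genes to -0.129 in place of -0.022, Erbb2 was at -0.025, Tgfa at -0.059, Epgn at -0.044 and Rhbdf1 at -0.074 (log2); by upper-quartile scaling Rhbdf1 was at -0.018, and 460 genes were higher and 723 lower. In the 5 libraries without Y-linked transcripts Hbegf was at 0.054, Epgn at -0.098, Rhbdf1 at -0.005 and Timp3 at -0.21. Leaving out 1 library, Tgfa ran from -0.185 to 0.33, Epgn from -0.122 to 0.253, Nrg2 from -0.027 to 0.437, Rhbdf1 from -0.031 to 0.113 and Timp3 from -0.008 to 0.396. Members called higher and lower were 1 and 1 with DESeq2, and 0 to 1 and 0 leaving out 1 library. Genes called higher and lower, 563 and 591, were 1085 and 920 with DESeq2, 370 and 997 by library totals, 141 and 242 in the 5 libraries, and 200 to 678 and 262 to 569 leaving out 1 library (200 and 262 without knockout replicate 2). Pathway genes called higher were 6 with DESeq2, 5 with a term for Y-linked transcripts, 0 in the 5 libraries and 0 to 4 leaving out 1 library; those called lower were 6 by library totals and 1 to 3 leaving out 1. Early response genes called were 4 with DESeq2 and by library totals, and 1 to 3 leaving out 1. In the 5 libraries 1 was called, which was neither Spry2 nor Dusp6. Same-numbered libraries did not deviate together (correlations -0.23 to -0.05), and numbers were not taken as pairs. That check cannot exclude a pairing, since other variation between libraries can mask it. With the replicate number as a block 375 genes were higher and 348 lower, 1 pathway gene was lower and 1 early response gene called. Src, Pik3r1, Ptprk and Dusp6 lost their calls under that block, and Src, Ptprj, Ptprk, Stam, Dusp6 and Spry2 in the 5 libraries; Stam also lost its call with limma-voom (adjusted p = 0.0541) and with no filter (adjusted p = 0.0635, edgeR). Lengths of the longest coding transcript were chosen after seeing the data. Btc could not be tested at 1 CPM in 4 libraries, and its 16 to 37 counts limit its precision.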
